A study of Mus musculus with 12 samples.

Results

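The 10 genes that name the classes of inhibitory interneurons, described here, are the calcium-binding proteins *Pvalb* and *Calb2*, the neuropeptides *Sst*, *Npy*, *Vip*, *Cck* and *Tac1*, the secreted glycoprotein *Reln*, the enzyme *Nos1* and the transcription factor *Lhx6*. They were taken by gene name from the annotation of the arrays, and their 10 names were carried by 18 of 41174 probes, on 54 of the 43379 spots that were not controls, out of 21136 gene names in all. RNA came from the entire hippocampus and from the cerebellum of En2WT mice and of En2KO (*En2*-/-) mice, with 3 one-colour arrays for each tissue and genotype. En2KO mice lack the homeobox domain of engrailed-2 in all cells from conception, so the change is not limited to interneurons. All mice were littermates from heterozygous matings, 3 to 5 months old, from a mixed 129Sv x C57BL/6 and outbred stock that was crossed into C57BL/6 at least 5 times, and no group received a treatment. The labels do not say whether a cerebellum array and a hippocampus array with the same number came from one mouse, so the tissues were compared as separate samples.

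Interneurons are local neurons that release GABA onto neighbouring cells. In the forebrain they form classes that differ in origin, shape and target: parvalbumin cells inhibit the cell body and the axon start of principal cells, somatostatin cells inhibit dendrites, and VIP cells mainly inhibit other interneurons. *Lhx6* specifies the classes born in the medial ganglionic eminence, which include the parvalbumin and somatostatin cells. Most of these genes are also used outside interneurons. In the cerebellum Purkinje cells make parvalbumin, granule cells make calretinin (the product of *Calb2*) and reelin, and pyramidal cells of the hippocampus make *Cck*.

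An array probe reads a gene through 60 bases, and 5 of the 18 probes cross an intron, so that they can pair in full only with spliced RNA. The sequences below are those of the probes that carry the difference of *Npy*, the split between the probes of *Nos1*, the region difference of *Tac1*, and the 3 separate readings of *Calb2*. All were read from the deposited array annotation, 5′ to 3′, with positions on mouse build mm9.
Npy A_51_P454873, chr6:49773743-49777505, plus strand, over 3763 bases: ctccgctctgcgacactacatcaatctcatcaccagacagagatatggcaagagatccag
Nos1 A_51_P160198, chr5:118402834-118403807, plus strand, over 974 bases: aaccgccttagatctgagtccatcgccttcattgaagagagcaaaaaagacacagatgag
Tac1 A_51_P216456, chr6:7507722-7509136, plus strand, over 1415 bases: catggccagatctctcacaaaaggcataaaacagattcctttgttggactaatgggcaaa
Calb2 A_52_P571780, chr8:112671252-112671959, minus strand, over 708 bases: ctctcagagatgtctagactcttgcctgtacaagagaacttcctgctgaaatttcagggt
Calb2 A_51_P311436, chr8:112667073-112669583, minus strand, over 2511 bases: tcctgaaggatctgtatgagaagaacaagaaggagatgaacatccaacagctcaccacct
Calb2 A_52_P556433, chr8:112678555-112678614, minus strand, within 60 bases: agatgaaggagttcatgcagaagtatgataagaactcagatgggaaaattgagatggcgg
The last *Calb2* probe is the one of these that lies in a single stretch of the genome. Of the 15 probes whose gene is in the RefSeq table used (GRCm38.p6, for names and strand only), 14 lie on the strand of their gene. The exception is the *Vip* probe, which the array annotation puts on the minus strand while the table puts *Vip* on the plus strand.

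Spots well above background made up between 62.3% and 73.0% of each array, none was saturated, and arrays of the same group correlated at 0.972 to 0.9915. Levels are given as log2 of the intensity after quantile normalization over the 12 arrays, and the median SD of a gene within a group was 0.207 to 0.275 on that scale. With 3 arrays a group, precision is set by their number. The probe with the highest mean stood for its gene, which was A_51_P266403 for *Nos1* and A_52_P571780 for *Calb2*. The 3 arrays of a group carry 3 replicate numbers, and each number was 1 slide that held all 4 groups and had its own scan time. The tissue labels were borne out by markers: *Gabra6*, the granule cell GABA receptor subunit, stood at a mean of 14.77 in En2WT cerebellum and was not well above background in En2WT hippocampus, and *Neurod6*, a transcription factor of pyramidal cells, stood at 13.13 in En2WT hippocampus and 7.34 in En2WT cerebellum. *En2* itself was read by a probe in the 3′ UTR, outside the stretch removed in the mutant, so it checks nothing about the genotype labels. Its En2KO minus En2WT difference was 0.31 in the cerebellum (SE 0.28, limma adjusted p = 0.837) and -0.23 in the hippocampus (SE 0.31, limma adjusted p = 0.711). The methods name mice of both sexes, but on all 12 arrays *Xist* was well above background and the Y-linked *Ddx3y*, *Eif2s3y*, *Kdm5d* and *Uty* were not.

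**Figure D1:**
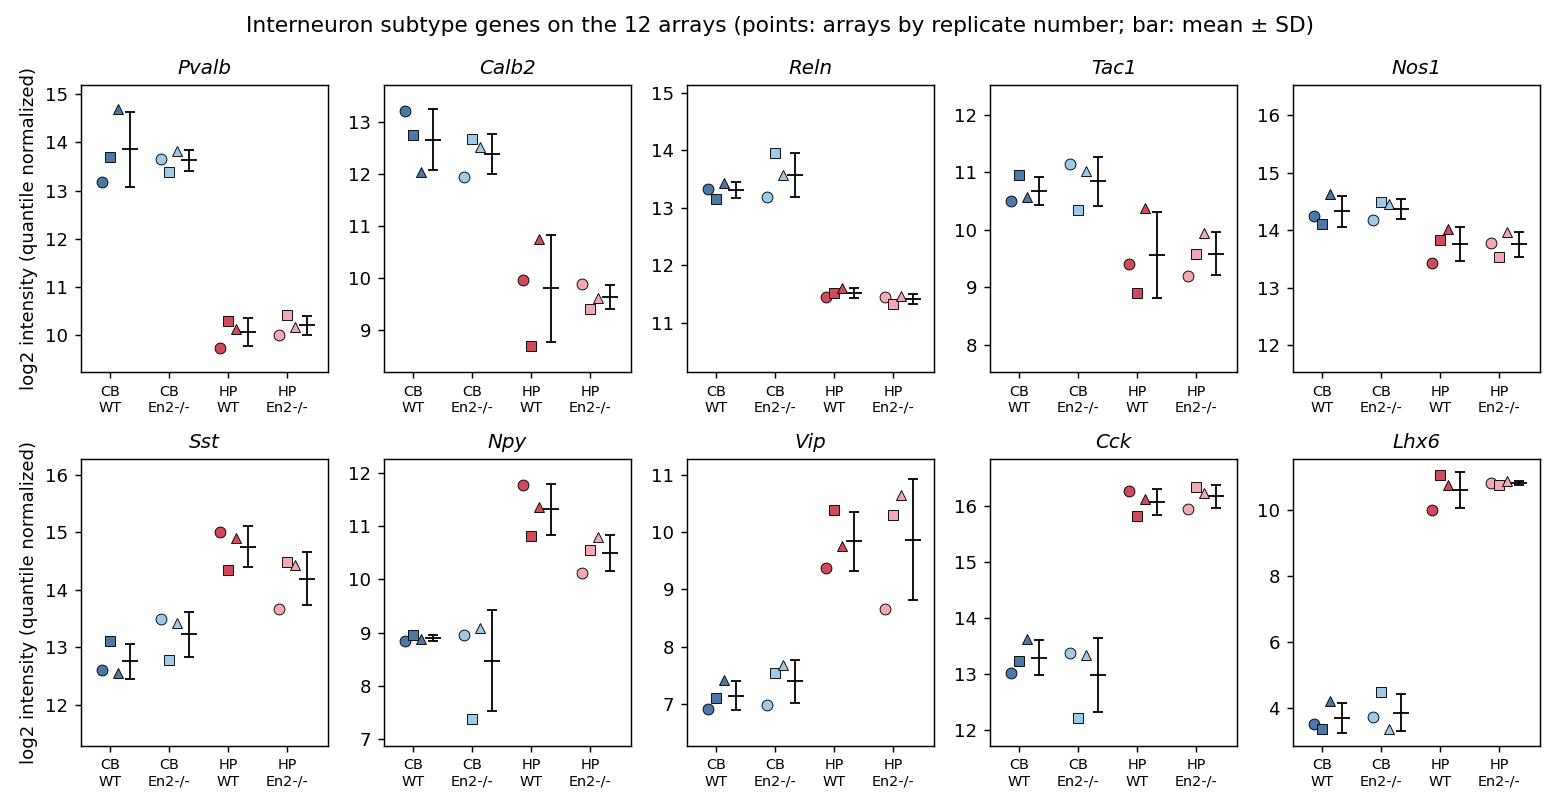
Log2 level of each of the 10 genes (y axis) in the 4 groups (x axis, CB for cerebellum, HP for hippocampus, WT for En2WT and En2-/- for En2KO), with 1 symbol per array (circle, square and triangle for replicates 1, 2 and 3) and a bar at the mean ± SD (n = 3). The tissues separate widely for *Pvalb*, *Cck* and *Lhx6*, while in the hippocampus the En2KO points of *Npy* lie just below the En2WT points, at 10.80 against 10.81 where the groups meet.

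The first comparison asked how the classes differ between the tissues. In En2WT mice *Pvalb*, *Calb2*, *Reln* and *Tac1* were higher in the cerebellum and *Sst*, *Npy*, *Vip*, *Cck* and *Lhx6* were higher in the hippocampus. Of the 10 genes, 9 passed an adjusted p of 0.05 (limma, Benjamini-Hochberg over all genes tested), where 32% of the 15810 genes tested did. In that comparison 17.3% of all genes were higher in the cerebellum, against 4 of the 10, and 14.7% were higher in the hippocampus, against 5 of the 10. In En2KO mice all 10 passed, where 26.9% of all genes did. Of these, 5 were higher in the cerebellum, where 12.6% of all genes were, and 5 were higher in the hippocampus, where 14.3% of all genes were. In both genotypes *Lhx6* entered the test through its hippocampus arrays alone, so the direction of its call follows from the filter. In a whole tissue, fewer cells of a type and less RNA per cell cannot be told apart.

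Among the genes higher in the cerebellum, *Pvalb* had the largest difference. It stood at 13.17, 13.70 and 14.69 on the En2WT cerebellum arrays and at 9.74, 10.31 and 10.13 on the En2WT hippocampus arrays. The tissues were far apart on every slide, and the difference was 13.9-fold (log2 3.80, limma adjusted p = 3.12e-06) in En2WT and log2 3.42 (limma adjusted p = 9.98e-06) in En2KO. *Calb2*, the gene of calretinin, stood at 13.21, 12.74 and 12.03 in En2WT cerebellum and at 9.96, 8.70 and 10.75 in En2WT hippocampus. It differed 7.25-fold in En2WT (log2 2.86, limma adjusted p = 0.000422), and the other 2 *Calb2* probes, printed above with it, gave log2 differences of 2.67 and 2.52. All 3 readings of *Calb2* thus ran the same way. *Reln*, whose product guides neuronal positioning and acts at adult synapses, lay between 13.15 and 13.96 on the 6 cerebellum arrays and between 11.32 and 11.61 on the 6 hippocampus arrays. Over the 6 hippocampus arrays it had the narrowest range of the 10 genes, and the tissues differed 3.46-fold in En2WT (limma adjusted p = 2.44e-05) and 4.48-fold in En2KO (limma adjusted p = 6.72e-06). With the mean of its probes the *Reln* log2 difference was smaller, at 0.65 in En2WT and 1.29 in En2KO, and still passed. The other *Reln* probe, A_52_P515857, was not well above background on any array.

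*Tac1*, which encodes substance P, had the smallest called difference in En2WT. Its arrays read 10.49, 10.96 and 10.57 in En2WT cerebellum and 9.40, 8.89 and 10.38 in En2WT hippocampus, so that the groups came close, at 10.49 against 10.38, without overlap. The difference was 2.17-fold in En2WT (limma adjusted p = 0.0309) and 2.40-fold in En2KO (limma adjusted p = 0.0202). The En2WT call was lost when any En2WT array other than hippocampus replicate 3 was left out, with adjusted p of 0.0942 and 0.126 without hippocampus replicates 1 and 2 and 0.0521, 0.103 and 0.0528 without cerebellum replicates 1, 2 and 3. The En2KO call was lost without hippocampus En2KO replicate 1 (adjusted p = 0.0694), cerebellum En2KO replicate 1 (adjusted p = 0.0694) or cerebellum En2KO replicate 3 (adjusted p = 0.0725), and with the mean of its probes (log2 0.59, adjusted p = 0.110). Of the other *Tac1* probes, A_52_P630806 was not well above background on any array, and A_52_P196019 was not on any hippocampus array.

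Among the genes higher in the hippocampus, *Lhx6* stood furthest apart. It read 10.02, 11.07 and 10.77 in En2WT hippocampus and 3.53, 3.35 and 4.22 in En2WT cerebellum, where it was well above background on 2 of 3 arrays, and on 1 of 3 in En2KO cerebellum. The fitted log2 difference was -6.92 in En2WT (limma adjusted p = 2.92e-08) and -6.97 in En2KO (limma adjusted p = 3.41e-08), with the cerebellum value near the level of the background. Its size depended on the processing: it was -4.41 in En2WT and -4.55 in En2KO with normexp background correction, and -4.34 and -3.99 with the mean of its probes, and it passed in each. The other *Lhx6* probe, A_51_P379159, was well above background on 1 En2WT hippocampus array and on no other array. *Cck* read 16.28, 15.82 and 16.12 in En2WT hippocampus and 13.02, 13.24 and 13.63 in En2WT cerebellum, a 6.87-fold difference (limma adjusted p = 2.13e-05), and the difference was 9.20-fold in En2KO (limma adjusted p = 8.52e-06). *Vip* lay between 8.66 and 10.64 on the 6 hippocampus arrays and between 6.91 and 7.68 on the 6 cerebellum arrays. It differed 6.43-fold in En2WT (limma adjusted p = 0.000617), through the probe whose strand is in doubt.

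*Npy* and *Sst* often mark the same cells of the hippocampus. *Npy* read 11.77, 10.81 and 11.37 in En2WT hippocampus and 8.85, 8.96 and 8.89 in En2WT cerebellum, a 5.35-fold difference (limma adjusted p = 0.000638), and the difference was 4.05-fold in En2KO (limma adjusted p = 0.00269). *Sst* read 15.01, 14.34 and 14.91 in En2WT hippocampus and 12.60, 13.10 and 12.55 in En2WT cerebellum, with means of 14.75 and 12.75 (limma adjusted p = 0.000234). In En2KO the *Sst* difference was 1.95-fold (limma adjusted p = 0.0280). That call was lost without hippocampus En2KO replicate 2 (adjusted p = 0.0996), without hippocampus En2KO replicate 3 (adjusted p = 0.102) and without cerebellum En2KO replicate 2 (adjusted p = 0.105). Whether the difference between the tissues itself depends on the genotype is tested further on.

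*Nos1*, the neuronal nitric oxide synthase, differed least between the tissues. Its brighter probe read 14.25, 14.11 and 14.63 in En2WT cerebellum and 13.43, 13.82 and 14.03 in En2WT hippocampus. The difference of 1.48-fold did not pass (limma adjusted p = 0.0581). It did pass in 2 of 8 alternative settings, normexp correction (adjusted p = 0.0390) and the slide as a block (adjusted p = 0.0342). Of 12 fits without 1 array it passed in 1, that without En2WT hippocampus replicate 3 (adjusted p = 0.0384). In En2KO it was 1.54-fold and passed narrowly (limma adjusted p = 0.0472), but not when each array was scaled to its 75th percentile (log2 0.39, adjusted p = 0.268) and not without hippocampus replicates 1, 2 or 3 of En2KO (adjusted p = 0.0882, 0.162 and 0.0565) or cerebellum replicates 2 or 3 of En2KO (adjusted p = 0.119 and 0.138). It was also lost without En2WT hippocampus replicate 2 or En2WT cerebellum replicates 1 and 2, which enter through the shared spread (adjusted p = 0.0593, 0.0591 and 0.0554). The same held with no filter on dim probes (adjusted p = 0.0541) and with each probe tested on its own (adjusted p = 0.0568). The other *Nos1* probe gave -0.94 in En2WT (limma adjusted p = 0.103 over all probes) and 0.72 in En2KO (limma adjusted p = 0.224 over all probes).

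**Figure D2:**
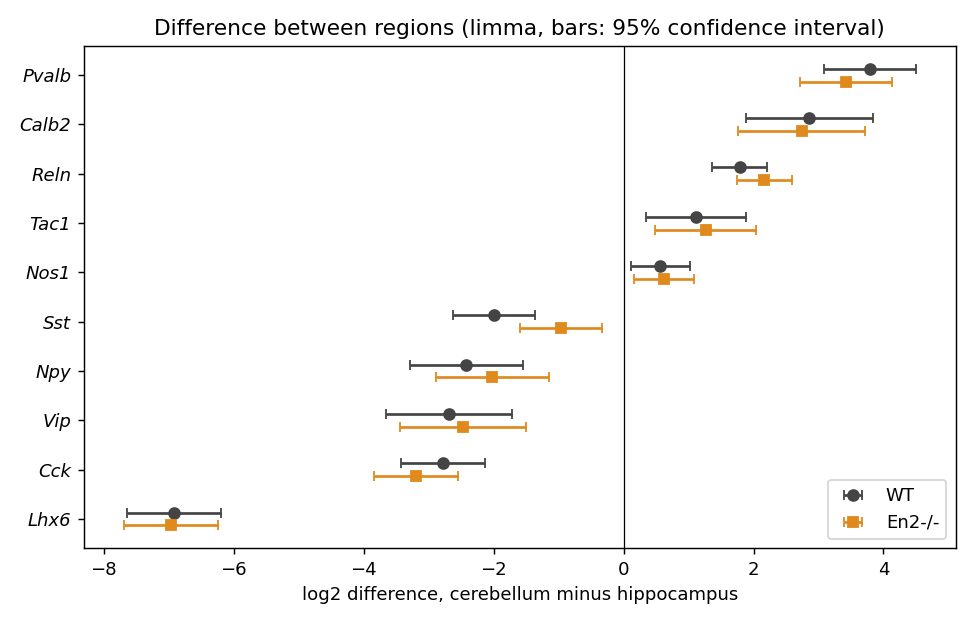
Cerebellum minus hippocampus log2 difference of each gene (x axis) with its 95% interval, in En2WT (WT) and in En2KO (En2-/-), from limma. The genes run from *Lhx6*, at -6.92 in En2WT, to *Pvalb*, at 3.80, and *Nos1* lies nearest to 0 in both genotypes.

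Genes of the same cells were followed through 5 lists. These were GABAergic identity, interneuron transcription factors, further subtype genes, perineuronal net components and receptors for the products of the 10 genes. The last, called the receptor list, also holds *Dab1*, *Prkg1* and *Prkg2*, which are not receptors. In En2WT mice 6 of 9 tested GABAergic identity genes differed between the tissues, 2 higher in the cerebellum and 4 in the hippocampus. The 4 were *Dlx1*, *Dlx2*, *Dlx5* and *Dlx6os1*, homeobox genes and a long noncoding RNA of forebrain GABAergic progenitors. None of them was well above background on any cerebellum array of either genotype. They entered the test through their hippocampus arrays alone, so the direction of their calls follows from the filter. They were at least 70.0-fold, 68.8-fold, 12.4-fold and 44.8-fold higher in the hippocampus, where each bound sets the En2WT hippocampus mean against a floor averaged over the 3 En2WT cerebellum arrays, the floor of an array being its lowest signal well above background or the probe's own signal where that was higher. *Slc32a1*, the vesicular GABA transporter, was higher in the cerebellum by 1.24, and *Gad1* and *Gad2*, the enzymes that make GABA, differed by -0.01 and 0.37. Of 13 tested transcription factors 1 was higher in the cerebellum and 6 in the hippocampus. Of 25 further subtype genes 9 were higher in the cerebellum, among them the potassium channel *Kcnc1* of fast-spiking cells (2.17), and 7 in the hippocampus, among them *Cort*, a peptide related to somatostatin (-2.56). Of 20 genes of the receptor list 3 were higher in the cerebellum and 8 in the hippocampus. The latter included the NPY receptors *Npy1r* (-3.96), *Npy5r* (-3.05) and *Npy2r* (-6.41). All these values are cerebellum minus hippocampus log2 differences. Of 7 perineuronal net genes 1 was higher in the cerebellum and 3 in the hippocampus. Of all genes, 17.3% were higher in the cerebellum and 14.7% were lower there. The 3 of 20 genes of the receptor list and the 1 of 7 net genes are near that share.

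The second comparison asked whether the classes differ in the hippocampus of En2KO mice. None of the 10 genes passed, where 1.34% of the 14967 genes tested did, and 1 of the 10 had groups that did not overlap, where 26.4% of all genes had. The median difference of the 10 genes was 0.00632 and that of all genes 0.0535, with 5 of the 10 higher and 5 lower. With the rank product, the statistic of the methods, and its uncorrected limit of 0.005, none of the 10 was called either, where 4.17% of all genes were. At an unadjusted limma p under 0.05, 1 of the 10 passed, which was *Npy*, as did 2918 of the 14967 genes.

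*Npy* had the largest negative difference of the 10 genes. The En2WT hippocampus arrays read 11.77, 10.81 and 11.37 and the En2KO arrays 10.13, 10.55 and 10.80, so that the groups met at 10.81 and 10.80. *Npy* was 1.77-fold lower in En2KO (log2 -0.83, SE 0.28, 95% interval -1.48 to -0.17), with an unadjusted p of 0.0199 and an adjusted p of 0.182 by limma. Its rank product p for a lower level was 0.0104. The En2KO array was below the En2WT array on all 3 slides, with differences of -1.65, -0.26 and -0.57. Leaving out 1 array moved the difference to between -0.60 (without En2WT replicate 1) and -1.08 (without En2WT replicate 2), and it passed in none of these fits.

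*Sst* came next. It read 15.01, 14.34 and 14.91 on the En2WT arrays and 13.66, 14.48 and 14.43 on the En2KO arrays, and the groups overlapped. The difference was -0.56 (SE 0.28, 95% interval -1.21 to 0.09, limma adjusted p = 0.312). Much of it came from En2KO replicate 1, without which it was -0.30, and it was -0.33 when each array was scaled to its 75th percentile. Within the slides it was -1.35, 0.14 and -0.47. The En2KO replicate 1 array was the lowest of the 6 hippocampus arrays for *Sst*, *Npy*, *Vip*, *Gad1*, *Gad2*, *Cort*, *Crhbp*, *Npy1r* and *Npy5r*. It was not the lowest for *Pvalb*, *Cck*, *Tac1*, *Reln*, *Nos1*, *Calb2*, *Lhx6*, *Slc32a1* or *Npy2r*.

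*Pvalb*, the marker of fast-spiking cells, stood close in both genotypes of the hippocampus, at 9.74, 10.31 and 10.13 in En2WT and at 10.02, 10.42 and 10.18 in En2KO. The difference was 0.15 (SE 0.21, 95% interval -0.33 to 0.62, limma adjusted p = 0.724), an interval that does not reach 1 on the log2 scale in either direction. *Lhx6* differed by 0.21 (95% interval -0.41 to 0.82, limma adjusted p = 0.696) and *Reln* by -0.11 (95% interval -0.46 to 0.25, limma adjusted p = 0.729). *Cck* differed by 0.11 (SE 0.19, limma adjusted p = 0.785). The remaining intervals were wide. *Vip* read 9.38, 10.38 and 9.75 in En2WT and 8.66, 10.30 and 10.64 in En2KO, with a difference of 0.03 (95% interval -1.14 to 1.20, limma adjusted p = 0.980). *Tac1* differed by 0.02 (95% interval -0.85 to 0.89, limma adjusted p = 0.983). *Calb2* differed by -0.16 (95% interval -1.23 to 0.90, limma adjusted p = 0.871) by the probe that stood for it and by 0.05 and -0.06 by its other probes. A level 2-fold lower in En2KO lies inside the intervals of both *Vip* and *Calb2*.

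The probes of *Nos1* parted. The one that stood for the gene, A_51_P266403, read 13.43, 13.82 and 14.03 in En2WT hippocampus and 13.77, 13.53 and 13.96 in En2KO, a difference of -0.01 (95% interval -0.50 to 0.48, limma adjusted p = 0.988). The other, A_51_P160198, whose sequence is given above, lies across an intron and ends 4946 bases before the first begins. It read 6.60, 6.43 and 6.30 in En2WT and 5.16, 5.36 and 5.28 in En2KO, well above background on all 6 arrays. Its groups did not overlap, as for 26.4% of all genes tested. In a fit over all named probes, in which 2.13% of 23768 probes passed, it was 2.25-fold lower in En2KO (log2 -1.17, SE 0.17, limma adjusted p = 0.0204). The slides gave -1.43, -1.06 and -1.02. The size depended on the background treatment, however: normexp correction gave -0.52 (adjusted p = 0.0972) and the authors' processed values -0.47 (adjusted p = 0.127). With the slide as a block the adjusted p was 0.0839, in the model of all 12 arrays it was 0.20, and the call was also lost without En2WT replicate 1 (0.0943), En2WT replicate 2 (0.0626), En2KO replicate 2 (0.0582) or En2KO replicate 3 (0.0926). The transcripts that each probe reads were not compared here.

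**Figure D3:**
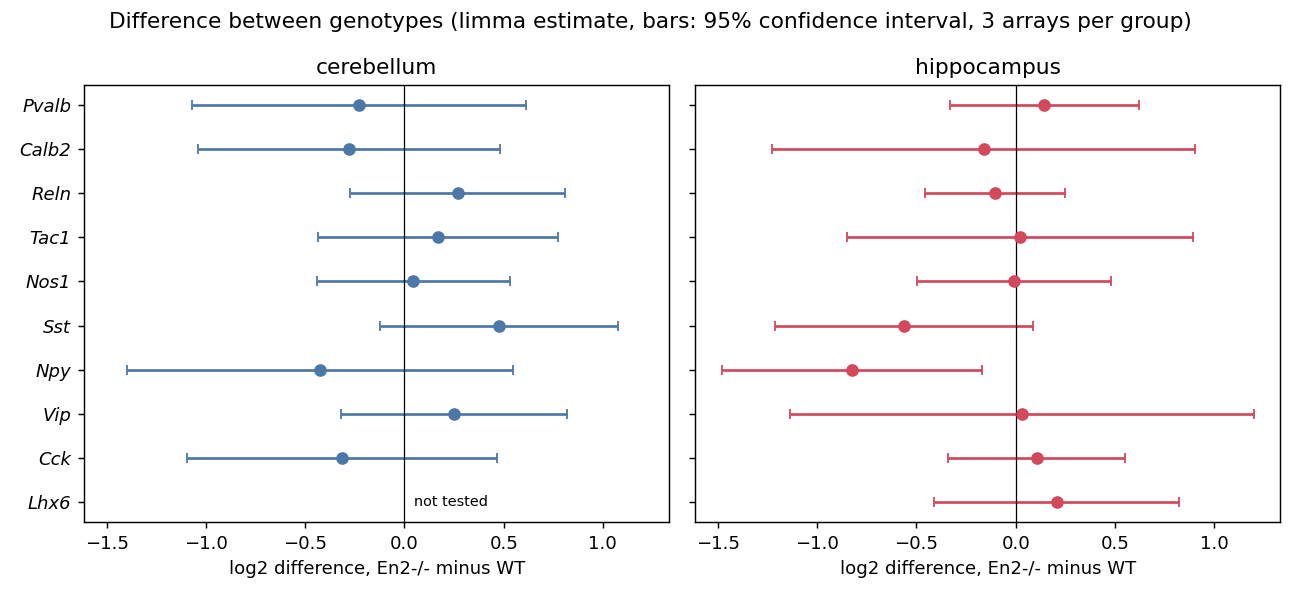
En2KO minus En2WT log2 difference of each gene (x axis) with its 95% interval, in the cerebellum and in the hippocampus, from limma. The hippocampus interval of *Npy*, from -1.48 to -0.17, is the one that leaves out 0 before adjustment, none of the genes passes after it, and *Lhx6* was not tested in the cerebellum.

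The receptor list held the 1 call among the 5 interneuron lists named above. In the hippocampus these lists had 9, 12, 23, 7 and 19 genes tested, in the order given there. Over all genes tested 1.34% were called, and 1 call among these lists is near that share. *Npy2r*, the presynaptic receptor of NPY, read 11.75, 11.73 and 11.79 in En2WT hippocampus and 10.63, 10.52 and 10.55 in En2KO. The groups were far apart against their spread, and *Npy2r* was 2.28-fold lower in En2KO (log2 -1.19, SE 0.15, limma adjusted p = 0.0144), where 0.628% of all genes tested were called lower in En2KO. It was lower on each slide, with differences of -1.11, -1.21 and -1.24. The call did not hold with the slide as a block (adjusted p = 0.0731), in the model of all 12 arrays (0.0830), or without En2WT replicate 1 (0.0681), En2WT replicate 2 (0.0547), En2KO replicate 2 (0.0505) or En2KO replicate 3 (0.0872), while the difference stayed between -1.16 and -1.22 when an array was left out.

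The other NPY receptors did not pass. *Npy1r*, the main postsynaptic receptor, read 9.71, 10.26 and 9.83 in En2WT and 9.15, 9.48 and 9.47 in En2KO. The groups did not overlap, as for 26.4% of all genes tested, and the difference was -0.57 (SE 0.20, limma adjusted p = 0.195). Without En2KO replicate 1, the lowest of the 6 arrays for *Npy1r* and *Npy5r*, the *Npy1r* difference was -0.46 (adjusted p = 0.352). *Npy5r* differed by -0.27 (limma adjusted p = 0.599). Of 19 genes tested in the receptor list, 4 had a higher mean in En2KO and 15 a lower one. Their median was -0.270 against 0.0535 for all genes. Somatostatin receptors differed by -0.16 (*Sstr1*), 0.07 (*Sstr2*) and -0.50 (*Sstr4*), the reelin receptors by -0.18 (*Lrp8*) and 0.02 (*Vldlr*), and the VIP receptor *Vipr1* by -0.19. The other VIP receptor, *Vipr2*, had the largest positive difference of the list, at 2.11 (SE 0.72, 95% interval 0.44 to 3.78, limma adjusted p = 0.180), with arrays from 5.12 to 5.86 in En2WT and from 5.62 to 8.57 in En2KO, which overlap. *Gucy1a1*, a subunit of the nitric oxide receptor, differed by -0.84 (SE 0.23, limma adjusted p = 0.130), and *Prkg1*, a kinase that acts after it, by -0.58 (limma adjusted p = 0.223). None of these passed. The normalized intensities of the receptor list added up to between 48634 and 49886 on the En2WT arrays and between 36551 and 43517 on the En2KO arrays.

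The other 4 of these lists held no call in the hippocampus. Of 9 GABAergic identity genes 3 had a higher and 6 a lower mean in En2KO. The list median was -0.151 against 0.0535 for all genes, and 0.0253 against 0.116 when each array was scaled to its 75th percentile. *Gad1* read 14.33, 13.91 and 13.85 in En2WT and 13.25, 13.74 and 13.62 in En2KO. The difference was -0.49 (SE 0.21, limma adjusted p = 0.249), and the groups did not overlap, as for 26.4% of all genes tested. *Gad2* differed by -0.15 and *Slc32a1* by -0.02, and both values lie inside the limma interval of *Gad1*, from -0.97 to -0.008. Whether the genes of GABA synthesis and loading differ in the size of their difference was not tested. The slides gave -1.08, -0.17 and -0.23 for *Gad1*. Without En2KO replicate 1 the *Gad1* difference was -0.35 (limma adjusted p = 0.465). Of 23 further subtype genes 12 had a higher and 11 a lower mean. *Crhbp*, the binding protein of corticotropin-releasing hormone in somatostatin cells, stood at 11.31, 10.96 and 10.53 in En2WT and 8.52, 9.72 and 9.98 in En2KO (log2 -1.53, SE 0.39, limma adjusted p = 0.112). *Cox6a2*, a subunit of cytochrome c oxidase, differed by 0.67 (SE 0.22, limma adjusted p = 0.169) and *Ndnf*, a marker of neurogliaform cells, by -0.52 (SE 0.20, limma adjusted p = 0.219). *Cort* differed by -0.42 and the channels *Kcnc1* and *Kcnc2* by 0.33 and 0.20, none of which passed. Of 12 transcription factors 6 had a higher and 6 a lower mean, with a median of 0.0197, and of 7 perineuronal net genes 3 and 4, with a median of -0.0926.

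**Figure D4:**
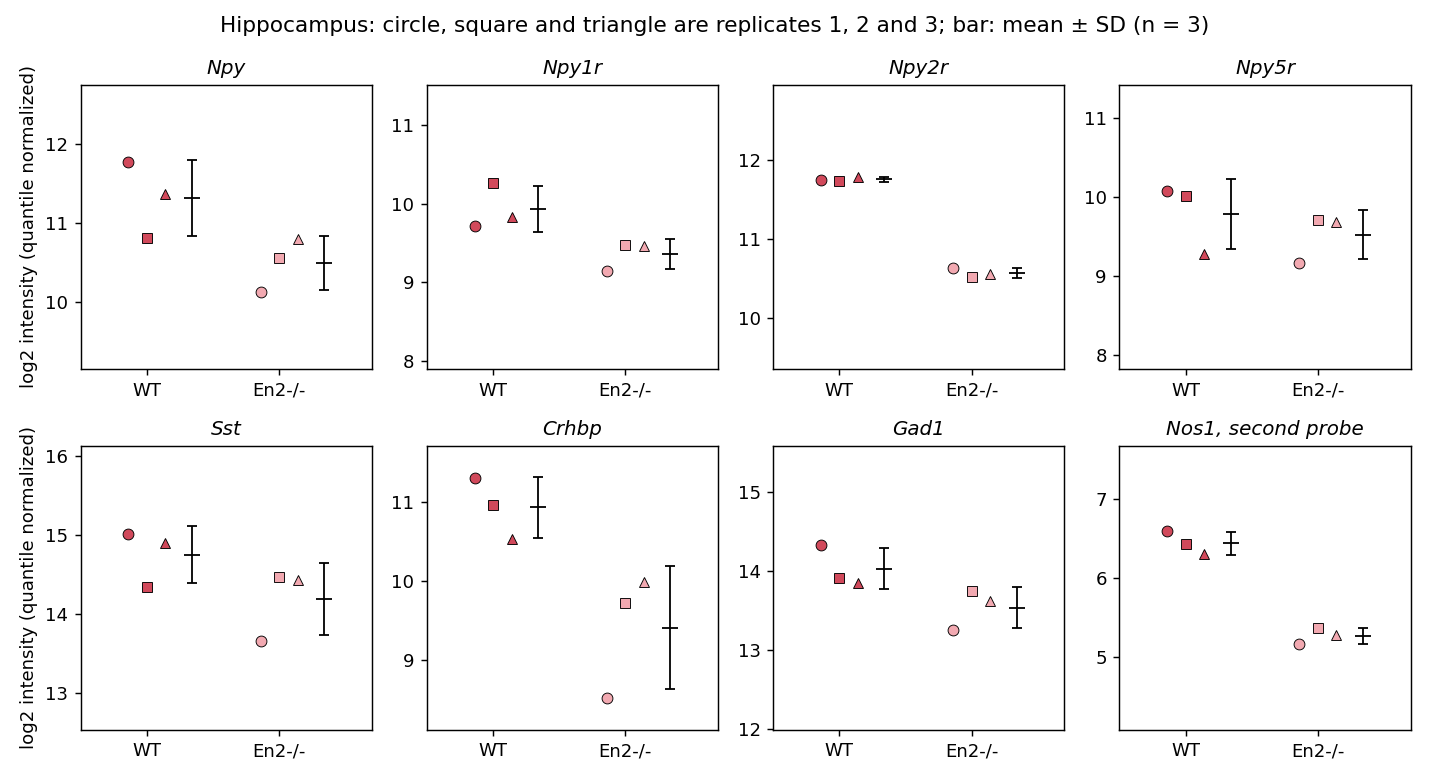
Log2 level in the hippocampus (y axis, each panel spanning the same number of log2 units) of *Npy*, its receptors, *Sst*, *Crhbp*, *Gad1* and *Nos1* probe A_51_P160198 (titled second probe) in En2WT (WT) and En2KO (En2-/-), with 1 symbol per array (circle, square and triangle for replicates 1, 2 and 3) and a bar at the mean ± SD (n = 3). *Npy2r* and the *Nos1* probe show groups far apart against their spread, and the circle of En2KO is the lowest of the 6 points for *Npy*, *Npy1r*, *Npy5r*, *Sst*, *Crhbp* and *Gad1*.

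Marker genes of neighbouring tissue also differed on these arrays. The normalized intensities of the thalamus list added up to 26904, 17172 and 26290 on the En2KO hippocampus arrays and to 10666, 12335 and 9276.5 on the En2WT arrays. All 9 thalamus genes tested had a higher mean in En2KO, with a median of 0.925 against 0.0535 for all genes. Of the 9, 2 passed (*Synpo2*, log2 2.39, limma adjusted p = 0.0269, and *Rgs16*, log2 1.21, limma adjusted p = 0.0436), where 1.34% of all genes tested did. On each array 9 to 10 of the 10 listed were well above background. This list, like the others, was chosen with earlier results of these data known. The choroid plexus list, of 8 genes all well above background, added up to 28369, 53468 and 65180 in En2WT and to 114000, 6498.7 and 32960 in En2KO, and the 114000 is the same En2KO replicate 1 array that was lowest for *Sst* and *Npy*. The sums of principal cell genes overlapped between genotypes, at 82032 to 95672 in En2WT and 82170 to 93018 in En2KO and none of 10 called, whereas *Slc17a7*, the glutamate transporter of their vesicles, was lower in En2KO (log2 -1.32, limma adjusted p = 0.0439). In the list of cerebellar molecular layer and Golgi interneuron genes, 1 of 7 tested was called, where 1.34% of all genes tested were. It was *Grm2*, a glutamate receptor that was higher in En2KO hippocampus (log2 1.30, limma adjusted p = 0.0261). The part of these markers in the values of *Npy*, *Sst*, *Nos1* and *Npy2r* was not tested. Without En2KO replicate 1 the difference of *Npy* was -0.64.

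**Figure D5:**
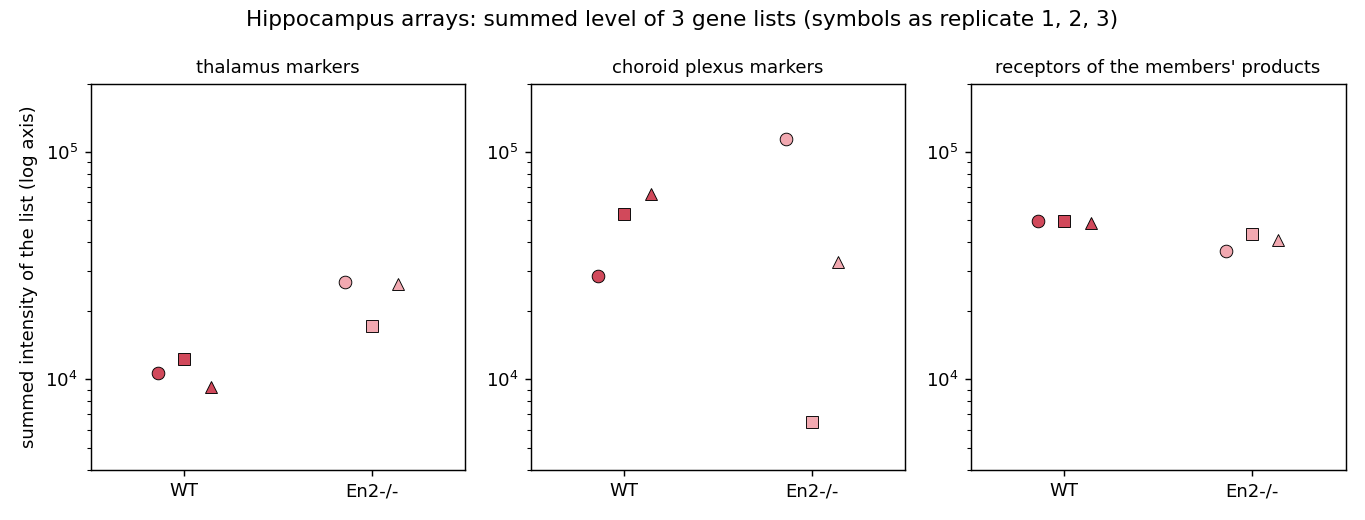
Summed normalized intensity (y axis, log scale) of the thalamus list, the choroid plexus list and the receptor list on the 6 hippocampus arrays, with 1 symbol per array (circle, square and triangle for replicates 1, 2 and 3). The thalamus sums of En2KO, 17172 to 26904, all lie above those of En2WT, the receptor sums of En2KO, 36551 to 43517, all lie below, and the choroid plexus sums of En2KO spread from 6498.7 to 114000.

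The third comparison was the same one in the cerebellum. None of the 9 genes tested passed, where 0.661% of 15588 genes did, and *Lhx6* was not tested because it was not well above background on all arrays of either genotype. The groups overlapped for all 9, where 14.8% of all genes had groups without overlap. The rank product with its limit of 0.01 called none of them, where it called 5.02% of all genes. At an unadjusted limma p under 0.05 none of the 9 passed, as against 1449 of all genes. The median of the 9 was 0.0444 against -0.0267 for all genes.

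*Sst* had the largest positive difference of the 9 genes. It read 12.60, 13.10 and 12.55 in En2WT and 13.49, 12.78 and 13.42 in En2KO (log2 0.48, SE 0.26, limma adjusted p = 0.661). *Npy* read 8.85, 8.96 and 8.89 in En2WT and 8.96, 7.37 and 9.09 in En2KO. Its difference of -0.43 (limma adjusted p = 0.857) rested on En2KO replicate 2 and was 0.13 without it. *Pvalb*, here chiefly a gene of Purkinje cells and molecular layer interneurons, differed by -0.23 (SE 0.37, limma adjusted p = 0.926), with En2WT arrays spread from 13.17 to 14.69. *Reln* differed by 0.27, *Vip* by 0.25, *Tac1* by 0.17, *Nos1* by 0.04, *Calb2* by -0.28 and *Cck* by -0.31, and none of them passed. *Nos1* probe A_51_P160198 differed by 0.49 (limma adjusted p = 0.902 over all probes).

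Cell markers of the cerebellum are given beside these values. All 8 Purkinje genes had a lower mean in En2KO, none of them called, with a median of -0.443 and sums of 364130 to 486300 in En2WT and 303570 to 329450 in En2KO. Granule cell genes added up to 242750 to 318780 in En2WT and to 233380 to 237080 in En2KO, none of 8 called. The 10 genes of molecular layer and Golgi interneurons held no call either, with sums of 32543 to 37551 in En2WT and 35508 to 40908 in En2KO. All 8 choroid plexus genes were well above background and had a higher mean in En2KO, none of them called, with a median of 0.489 and sums of 22077 to 24864 in En2WT and 28664 to 34672 in En2KO. The part of these markers in the differences above was not tested. In the interneuron lists 0 of 5 GABAergic identity genes, 0 of 12 transcription factors and 0 of 25 further subtype genes passed. Of 7 perineuronal net genes and of 20 genes of the receptor list, 0 passed. Of these 20 genes 15 had a higher and 5 a lower mean in En2KO, with a median of 0.314 against -0.0267 for all genes. In the hippocampus 4 of 19 had a higher and 15 a lower mean. The test of whether the genotype difference depends on the tissue, described below, called 0 of the 20 list genes. In the cerebellum *Gad1* differed by 0.20, *Pnoc*, the precursor of nociceptin, by 0.60 (limma adjusted p = 0.366) and *Npy2r* by 1.03 (limma adjusted p = 0.403). *Npy2r* stood at low levels of 4.83 to 6.86 there.

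The genotype differences of the tissues were then set against each other by the interaction term of the model over the 12 arrays. It called none of the 10 genes, where 0.145% of all genes were called, and at an unadjusted p under 0.05 it held *Sst* alone of the 10, beside 1870 of all genes. For *Sst* the cerebellum difference exceeded the hippocampus difference by 1.04 (SE 0.41, limma adjusted p = 0.371). For *Npy* it did so by 0.40 (limma adjusted p = 0.785) and for *Nos1* probe A_51_P160198 by 1.66 (limma adjusted p = 0.346 over all probes). For *Npy2r* the term was 2.22 (limma adjusted p = 0.10), and it passed with normexp correction (1.69, adjusted p = 0.0180), with the authors' values (1.71, adjusted p = 0.0159) and without cerebellum En2WT replicate 2 (2.57, adjusted p = 0.0192). It did not pass in 6 of 8 alternative settings or in 11 of 12 fits without 1 array. There the limma adjusted p went up to 0.158 and 0.234.

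Over the 6 hippocampus arrays, the genes whose levels ran most like *Npy* among 14797 genes were *Fbxl2*, *Lcp2* and *Parp6*, with Pearson correlations of 0.997, 0.991 and 0.991. Those most like *Sst* were *Vstm5*, *A230006K03Rik* and *Wnt9a*, with correlations of 0.987, 0.977 and 0.972. Those most like *Pvalb* were *Haao*, *Alkal2* and *Ska2*, with correlations of 0.987, 0.978 and 0.976. With 6 points chosen from so many genes, and with the points sharing arrays and normalization, these values are a description of these arrays.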

How the data were processed

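Total RNA of the cerebellum and the hippocampus, labelled with Cy3, was hybridised to one-colour Agilent mouse arrays. Per the file headers, the authors deposited linear spot intensities, background-corrected within the array by the scanner software, with flags and mm9 probe positions. The authors also deposited log2 values filtered with Agi4x44PreProcess and quantile normalized. These were normalized per tissue, so they were used as an alternative for genotype comparisons only. The scanner software was run separately per tissue with different annotation versions, naming 4691 spots differently, none of them of the genes described here. The newer one was used.

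Outlier-flagged spots were left out, log2 intensities were quantile normalized over the 12 arrays, with repeated spots averaged. A gene was read by its brightest probe, tested where well above background on all 3 arrays of 1 group, with values on at least 2 arrays per group. Python 3.11.15, R 4.3.3 and limma 3.58.1 were used (lmFit, eBayes, Benjamini-Hochberg). Genotypes were compared on the 6 arrays of a tissue, and regions and the interaction in a 4-group model of 12 arrays. The rank product of the methods, whose limits are uncorrected, was an alternative, as were other background corrections, scalings, filters and probe rules, the slide as a block and the omission of 1 array at a time. The code was tested on simulated data. The genes and lists were chosen with earlier results of these data known. Genes outside them were named as most alike in the hippocampus or as called or at an unadjusted p under 0.05 in a list, and *Gad1*, *Npy1r*, *Npy2r*, *Crhbp* and the second *Nos1* probe were followed after their values were seen. The arrays are labelled as separate samples, but not as separate animals, so p-values measure the spread between arrays.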

Additional observations from a re-analysis of the deposited data

How the results depend on the processing

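None of the 10 genes was called for genotype or for the interaction under any alternative, and the counts of 9 and 10 for the regions stayed within 1.5 times. Of 1154 recomputed differences of the 10 genes, 4 list genes and the second *Nos1* probe, 1061 kept their direction and their side of the threshold, 38 fell below it, 6 rose above it and 49 changed sign, 0 of them called. The list genes and this probe were followed after seeing the data. The authors' values were not run for the regions, since they were normalized per tissue.

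The number of genes called moved more. In the cerebellum (103) it was 62 with normexp correction, 65 with the authors' values, 43 with no filter on dim probes, 64 with probes above background on every array, 161 in the 4-group model, 782 by rank product and 46 to 90 without 1 array. In the hippocampus (201) it was 68 with no filter, 69 with the replicate block, 624 by rank product and 38 to 142 without 1 array. For the interaction (23) it was 13 with the authors' values, 15 with no filter, 14 above background on every array and 5 to 36 without 1 array. The cause was not tested.

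Arrays of the same number and tissue did not deviate together: over 15348 genes the correlations of their deviations between genotypes were -0.172, 0.0911 and -0.0642 in the hippocampus and -0.0499, 0.112 and 0.00953 in the cerebellum. Across tissues the 12 same-number correlations ran from -0.192 to 0.415, 6 of them over 0.1, and 9 were above those with the other numbers. The block left *Npy* at an adjusted p of 0.267 and raised *Nos1* in the En2WT region comparison to a call (adjusted p = 0.0342).

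Scaling to the 75th percentile put the median of all genes at 0.116 for the hippocampus, 0.138 for the regions in En2WT and -0.206 for the interaction. It turned *Nos1* to -0.0526 in the cerebellum, 0.19 in the hippocampus and -0.24 for the interaction. The mean of all probes turned *Tac1* (-0.40) and *Gad1* (-0.33) in the cerebellum, *Lhx6* (-0.38) in the hippocampus, *Nos1* (-0.19) between regions in En2WT, and *Lhx6* (0.35) and *Tac1* (-0.59) for the interaction. For *Tac1* and *Lhx6* this mean takes in dim probes. *Tac1* probe A_52_P630806 was not well above background on any array. *Lhx6* probe A_51_P379159 was so on 1 En2WT hippocampus array and on no other array. Without 1 array, in the cerebellum *Cck* ran from -0.51 to 0.0658, *Crhbp* from -0.65 to 0.12, *Gad1* from -0.0132 to 0.37, *Nos1* from -0.064 to 0.19, its second probe from -0.00587 to 0.85, *Npy* from -0.73 to 0.13 and *Pvalb* from -0.57 to 0.19. In the hippocampus *Calb2* ran from -0.71 to 0.31, *Cck* from -0.0194 to 0.22, *Lhx6* from -0.0922 to 0.43, *Nos1* from -0.17 to 0.13, *Pvalb* from -0.0150 to 0.27, *Tac1* from -0.31 to 0.43 and *Vip* from -0.36 to 0.64. For the interaction *Calb2* ran from -0.59 to 0.43, *Lhx6* from -0.36 to 0.25, *Nos1* from -0.0812 to 0.22, *Pvalb* from -0.72 to 0.0440, *Tac1* from -0.26 to 0.48 and *Vip* from -0.39 to 0.60. *Tac1* lost its call between regions in En2KO with the mean of its probes (0.59, adjusted p = 0.110), and in En2WT with no filter (adjusted p = 0.0521). With 3 arrays per group, exact permutation of 1 gene's values cannot give a two-sided p below 0.1.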
